A study of Mus musculus with 58 samples.

Results

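The collagen genes of the mouse prefrontal cortex were described as a set, across genotype, drug treatment and sex. The set holds every gene whose mouse symbol is Col, a type number, the letter a and a chain number, and whose mean over the 58 libraries was at least 10 normalised counts. All 44 such genes in the table met that minimum, out of 18088 genes in all and 16669 that passed the same minimum and were tested. RNA had been sequenced from prefrontal cortex of C57BL/6J mice on postnatal day 25. The mice were labelled wild-type or heterozygous for Kmt5b, which encodes a histone methyltransferase (WT and HT below). Pups had received vehicle, fluoxetine, a serotonin reuptake inhibitor, or lithium, a mood stabiliser, for 3 weeks (postnatal days 3 to 24) through the milk of the dam. Each combination of genotype and treatment had 10 libraries, 5 female and 5 male, except lithium in WT with 8, 4 of each sex. How the Kmt5b allele was made and which pups were littermates are not given in the sources used here. Littermates can share a treatment given through milk, so p-values may be too small.

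Collagens are extracellular proteins whose chains wind into triple helices. Fibrillar collagens form the fibrils of connective tissue, and fibril-associated collagens (FACITs) bind to the surface of such fibrils. Type IV collagen forms the network of basement membranes, which in brain surround vessels and line the pial surface, and type VI forms beaded filaments. Brain parenchyma holds little fibrillar collagen, most of which lies in the meninges and around large vessels, while some transmembrane and FACIT collagens are made by neurons.

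The stretches upstream of the genes on which the comparisons below turn are shown first. Col5a1, Col16a1 and Col11a1 were the genes called in more than 1 of the averaged comparisons of genotype, fluoxetine and lithium, and for them the 250 bases before the start site are printed. Col4a1 and Col4a2 are neighbours that share a start region, and the 30 bases around their start sites are printed. Sequences are from RefSeq (GRCm38.p6), 5′ to 3′ on the plus strand, and capitals mark matches on either strand to GGGCGG (GC box), CCAAT or TATAAA. The stretches lie at chr2:27886175-27886424 (Col5a1), chr4:130047590-130047839 (Col16a1), chr3:114030290-114030539 (Col11a1) and chr8:11312797-11312826 (Col4a1 and Col4a2).
Col5a1 upstream: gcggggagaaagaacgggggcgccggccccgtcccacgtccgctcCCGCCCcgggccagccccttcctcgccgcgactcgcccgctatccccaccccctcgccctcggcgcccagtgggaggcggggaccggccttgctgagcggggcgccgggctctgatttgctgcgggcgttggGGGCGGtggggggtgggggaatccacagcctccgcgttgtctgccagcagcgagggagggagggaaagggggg
Col16a1 upstream: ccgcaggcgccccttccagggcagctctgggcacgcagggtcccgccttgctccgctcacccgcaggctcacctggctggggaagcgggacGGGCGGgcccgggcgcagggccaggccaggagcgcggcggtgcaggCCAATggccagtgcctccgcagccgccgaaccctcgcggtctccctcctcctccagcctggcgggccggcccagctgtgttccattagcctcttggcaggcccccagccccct
Col11a1 upstream: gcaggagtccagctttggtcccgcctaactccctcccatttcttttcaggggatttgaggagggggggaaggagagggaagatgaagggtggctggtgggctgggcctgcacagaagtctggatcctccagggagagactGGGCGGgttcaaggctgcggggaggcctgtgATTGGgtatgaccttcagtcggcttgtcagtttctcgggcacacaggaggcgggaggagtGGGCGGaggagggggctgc
Col4a1 and Col4a2 start sites: ccctcggcagtgcgcGGGCGGcgtctccaa

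The Col5a1 stretch held 76.4% G or C, that of Col16a1 75.6%, and that of Col11a1 62.4%. Col5a1 had GGGCGG 73 bases before its start site and, on the opposite strand, 205 bases before it. Col16a1 had GGGCGG 159 bases and CCAAT 113 bases before its start site. Col11a1 had GGGCGG at 110 and 19 bases and CCAAT, on the opposite strand, at 79 bases before its start site. Windows from 250 bases before to 50 bases after the start were held for 35 of the 44 genes (38 windows), and Col12a1, Col14a1, Col1a1, Col22a1, Col26a1, Col2a1, Col4a3, Col5a2 and Col9a3 had none. GGGCGG was found in 23 of the 38 collagen windows (60.5%), against 35.7% of all 32851 windows of that length. CCAAT stood in 13 (34.2%, against 37.4%) and TATAAA in 5 (13.2%, against 13.6%). Median GC content was 59.8% in the collagen windows and 52.7% in all windows. These matches describe letters and not binding. The Col16a1 window overlaps an exon of the antisense gene Gm12963, and whether counting used the strand is not given in the sources used here, so reads of the pair may be mixed.

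Recovered reads lay between 23.47 and 38.56 M per library (median 27.64 M). The sex label was contradicted by Xist or Ddx3y in 0 libraries, and over 112 pairs of libraries from the same group the difference was 3.07 to 57.8 times the sampling noise. Kmt5b itself lay between 1409 and 1956 (median 1667) in WT and between 1573 and 2008 (median 1738) in HT, so its RNA was not lower in the libraries labelled HT, and every genotype direction below rests on those labels. Markers of excitatory neurons (10 of 10 tested) and inhibitory neurons (10 of 10) were above 0 in every library. Olfactory bulb markers were present too: their mean log2 level was 7.7221 to 10.7671 in 48 libraries and 5.5357 to 6.2834 in the other 10, of which 3 were WT vehicle, 1 WT fluoxetine, 3 HT fluoxetine and 3 HT lithium. Calls that were lost without those 10 are given beside each result.

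Levels between genes are compared as normalised count per kilobase of exon. Col6a1 (ENSMUSG00000001119, chr10:76708792-76726168), a chain of the type VI filament, was highest at 727.3 ± 141.3 (SD, n = 58), with single libraries from 396.7 to 1039. Col4a2 at 436.9 ± 64.83 and Col4a1 at 374.5 ± 49.1, the main chains of vascular basement membrane, came next. Their difference was within 1 SD of Col4a2, while Col6a1 exceeded Col4a2 by more than its own SD. These 3 genes made up 48.24% of the summed collagen level. Col25a1, a transmembrane collagen of neurons, followed at 142.2 ± 16.37, ahead of the FACIT chains Col9a3 (119.7 ± 19.75) and Col16a1 (106.6), and of Col5a1 (100.4) and Col11a2 (100.1), minor fibrillar chains that join larger fibrils and help set their diameter. From Col9a3 down to Col11a2 each neighbour in the order lay within the spread of the next.

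In all, 8 collagen genes had at least 100 normalised counts per kilobase, 26 had 10 to 100, and 10 had less than 10. By class, the 6 type IV genes held 26.95% of the summed level, the 6 type VI genes 26.41%, the 11 fibrillar genes 18.45%, the 9 FACIT genes 15.2% and the 4 transmembrane genes 7.964%. The rest was spread over Col18a1 and Col15a1 (multiplexins, which carry glycosaminoglycan chains in basement membranes), Col26a1 and Col28a1, the short-chain network genes Col8a1, Col8a2 and Col10a1, and Col7a1, the anchoring fibril chain. Chains of the same type did not stand at one level. Col6a1 was 9.459 times Col6a2 (76.88), its neighbour on chromosome 10, although both chains enter the same filament, and Col6a3, the other classical chain, stood at 12.07. Of type IV, Col4a5 stood at 34.97, Col4a6 at 9.099, Col4a4 at 2.393 and Col4a3 at 1.718. The chains of the type I fibril were alike, with Col1a2 at 86.23 and Col1a1 at 85.12, and Col3a1 stood at 43.23.

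The lowest levels were those of Col4a3, Col6a6 (2.014), Col4a4, Col2a1 (2.935, the cartilage fibril chain), Col6a5 (3.754) and Col10a1 (3.975), but no collagen gene was at 0 in any library. Col6a4 varied most among the genes above 10 per kilobase, from 5.562 to 44.06. With the longest coding transcript as the length in place of all exons, the 4 highest genes kept their ranks. Col1a2 then moved from rank 10 to 5 (200.4) and Col26a1 from 23 to 14 (87.59).

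**Figure D1:**
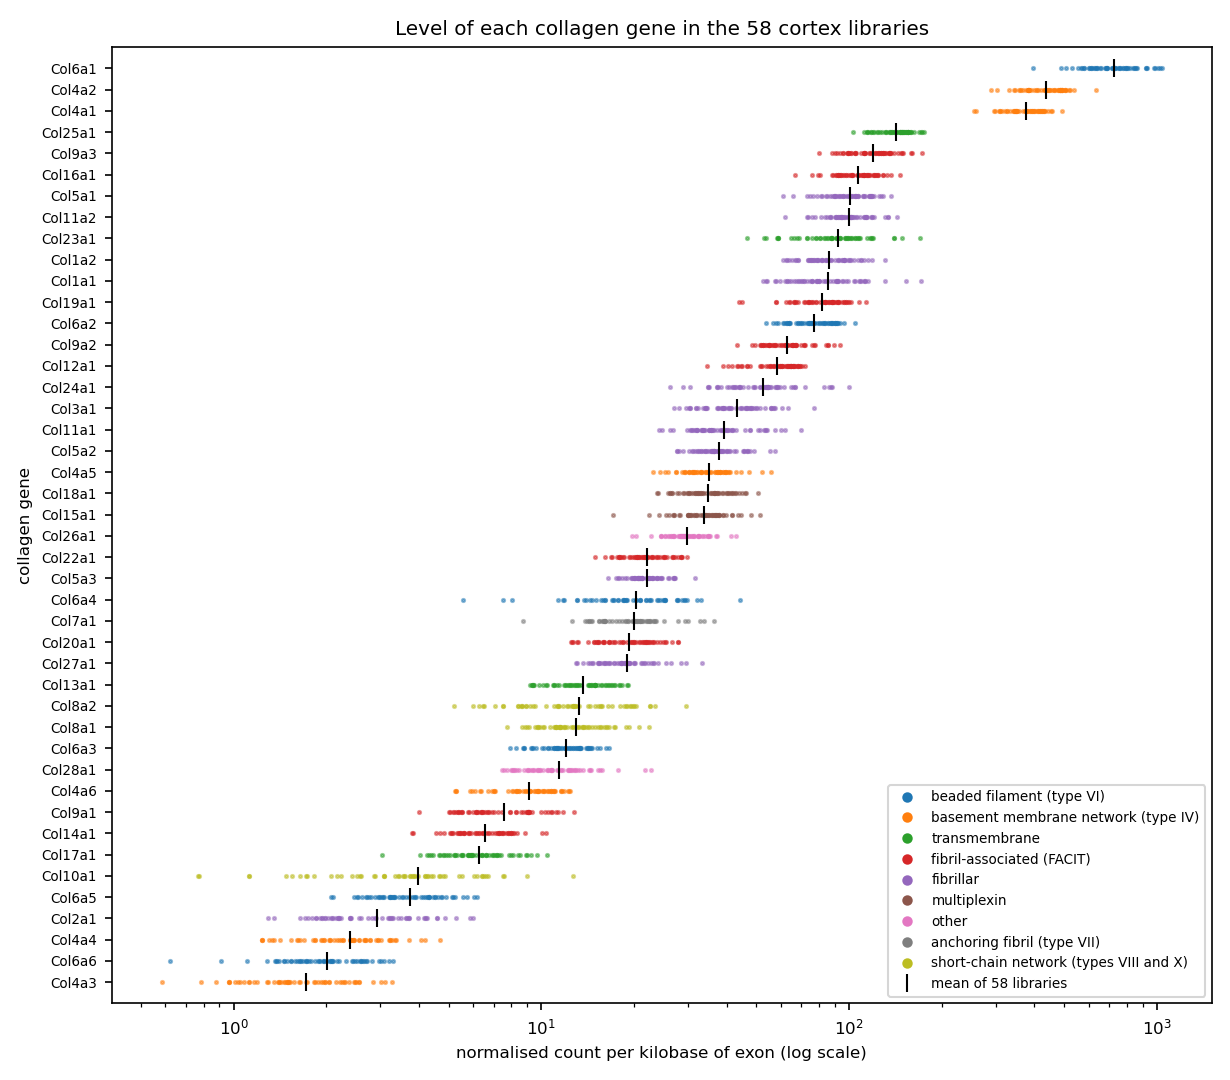
Normalised count per kilobase of exon (x axis, log scale) for each of the 44 collagen genes (y axis, highest mean at the top), with 1 point per library (n = 58), coloured by class, and a black line at the mean. Col6a1, Col4a2 and Col4a1 stand apart at the top, and the genes of one class are spread over the whole order.

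The highest genes of the classes not yet described by group had overlapping ranges in all 6 groups of genotype and treatment. Col25a1 had group medians from 1736 (WT lithium) to 1962 normalised counts (HT fluoxetine), with single libraries from 1331 to 2276. Col18a1 had medians from 227.9 to 277.9 (single libraries 167.4 to 354.2) and Col26a1 from 213.1 to 268.7 (161.2 to 350.8). For Col7a1 medians lay between 177 and 223.8 (89.77 to 375.7) and for Col8a2 between 46.29 and 62.55 (23.45 to 132.4). None of these genes was called in any comparison below.

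The comparison of HT with WT, averaged over the 3 treatments, asks how the genotype label relates to collagen expression. Of the 44 genes 4 rose in HT and none fell: the minor fibrillar chains Col5a1 and Col11a2 and the FACIT chains Col16a1 and Col9a3. A gene was called where limma with Benjamini-Hochberg adjustment over all 16669 genes gave an adjusted p under 0.05. The 4 genes were 9.091% of the set, against 0.468% of all genes tested called in either direction and 0.39% called higher. In the set 35 of 44 genes lay above 0 (46.05% of all genes did), and the median log2 difference was 0.07 against -0.0045 over all genes. An unadjusted p under 0.05 was reached by 12 collagen genes, 11 higher and 1 lower (27.27% of the set, against 10.57% of all genes). The members were chosen with earlier results of these data known, and some vary together between libraries (below), so these shares are description only. In bulk tissue, more RNA per cell and more cells of a type cannot be told apart.

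Col5a1 (ENSMUSG00000026837, chr2:27886425-28039514) had a lowest, median and highest normalised count of 518.1, 765.4 and 1077 in the 28 WT libraries. In the 30 HT libraries these were 714.6, 910.3 and 1159. The groups overlapped, but 29 of 30 HT libraries lay above the WT median. The log2 difference was 0.27 (SE 0.0461, 95% confidence interval 0.18 to 0.37, 1.21-fold, limma adjusted p = 0.0008599), and no single library's removal ended the call (adjusted p 0.0001759 to 0.002323).

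Col16a1 (ENSMUSG00000040690, chr4:130047840-130099283) lay between 451.8 and 873.2 in WT (median 642.3) and between 612.5 and 988.9 in HT (median 754). Again 29 of 30 HT libraries were above the WT median. The log2 difference was 0.21 (SE 0.0427, 1.16-fold, limma adjusted p = 0.006392), and it too was called without any single library. Col9a3 (ENSMUSG00000027570, chr2:180597790-180622189), a chain of type IX collagen, ran from 308.5 through a median of 404.6 to 617.4 in WT and from 347.6 through 491.7 to 666.1 in HT. There 27 of 30 HT libraries exceeded the WT median (log2 difference 0.21, SE 0.0506, 1.16-fold, limma adjusted p = 0.03415).

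Col11a2 (ENSMUSG00000024330, chr17:34039437-34066685) had 427.1, 646 and 815.7 as lowest, median and highest count in WT and 582.3, 703.7 and 987.8 in HT, with 23 of 30 HT libraries above the WT median. Its log2 difference was 0.20 (SE 0.0493, 1.15-fold, limma adjusted p = 0.03839). The calls of Col9a3 and Col11a2 depended on the libraries used: Col9a3 missed the threshold without any of 12 single libraries (highest adjusted p 0.06148) and Col11a2 without any of 25 (0.06782). Without the 10 libraries low in olfactory bulb markers, Col9a3 had 0.19 (limma adjusted p = 0.1479) and Col11a2 0.22 (0.05978). On recovered reads by edgeR the adjusted p of Col9a3 was 0.08634 and that of Col11a2 0.05499.

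**Figure D2:**
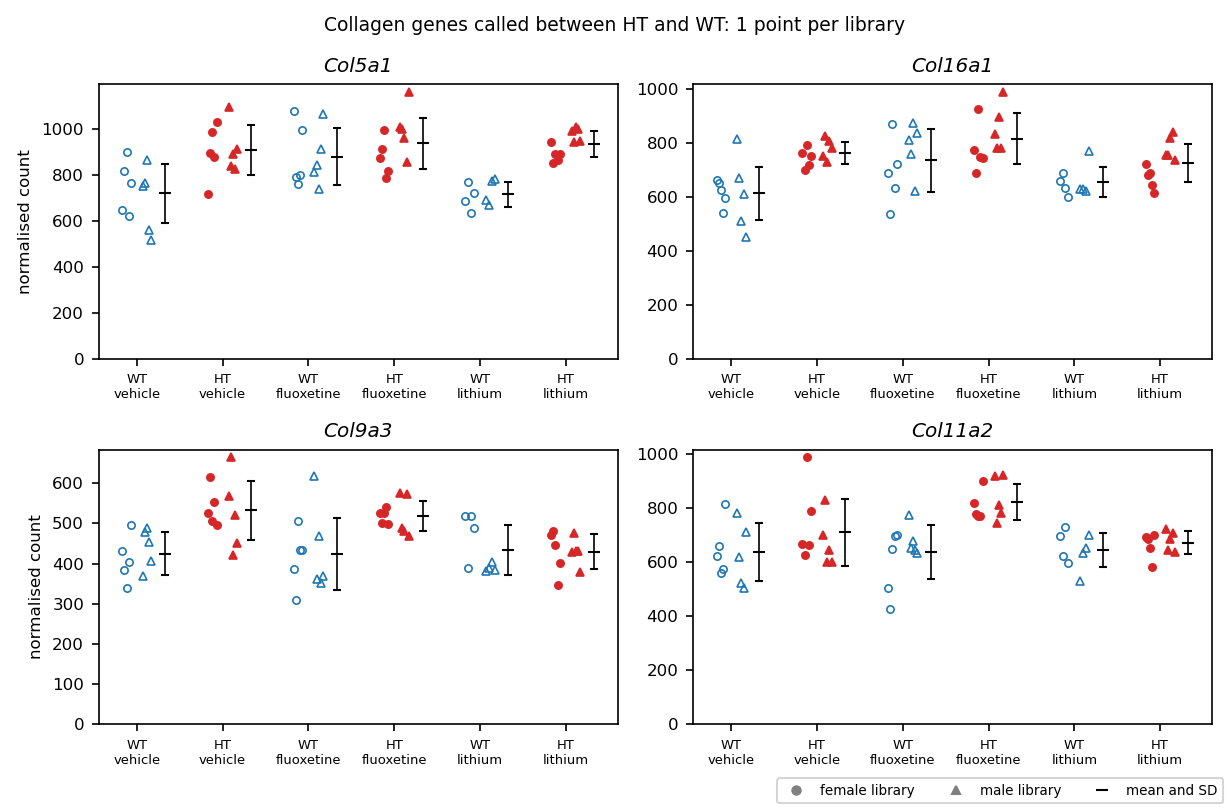
Normalised count (y axis, from 0) of Col5a1, Col16a1, Col9a3 and Col11a2 in each of the 6 groups (x axis), with open blue symbols for WT, filled red for HT, circles for female and triangles for male libraries, and the mean with SD (n = 10, 8 for WT lithium) beside them. Col5a1 in HT lithium (850.9 to 1008) lies wholly above WT lithium (632.9 to 781.9), and the other pairs of HT and WT overlap.

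By class, 10 of 11 fibrillar genes were above 0 in HT (median log2 difference 0.08, 2 called), as were 7 of 9 FACIT genes (median 0.06, 2 called) and 5 of 6 type VI genes (median 0.13, none called). Col6a2 came nearest among the latter at 0.18 (limma adjusted p = 0.08808). Type IV was divided, with 3 of 6 genes above 0 and a median of -0.01. Col4a2 had the smallest p of the genes lower in HT, at -0.13 (SE 0.0502, limma adjusted p = 0.2844), and Col4a1 was at -0.08 (adjusted p = 0.5522).

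Within treatments fewer genes were called. Under vehicle limma called none of the 44 (0.048% of all genes were called), and edgeR and DESeq2 also called 0. Of the set 11 genes (25%, 10 higher and 1 lower) had an unadjusted p under 0.05, against 12.21% of all genes. The smallest p there were those of Col16a1 (0.33, limma adjusted p = 0.05541), Col5a1 (0.34, adjusted p = 0.06388) and Col6a2 (0.35, adjusted p = 0.08127). All 11 fibrillar genes lay above 0 under vehicle, with a median of 0.18, and 50.66% of all genes lay above 0. Of the 10 libraries low in olfactory bulb markers, 3 were WT vehicle and none HT vehicle. The part of those libraries in this median was not tested.

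Under fluoxetine only Col11a2 was called (2.273% of the set, against 0.612% of all genes). It lay between 745.8 and 921.9 in HT (median 794.5) and between 427.1 and 772.2 in WT (median 648.6), and all 10 HT libraries were above the WT median. The log2 difference was 0.38 (SE 0.0837, 1.3-fold, limma adjusted p = 0.02486). It missed the threshold without HT fluoxetine female 5, HT fluoxetine male 1, WT fluoxetine female 2 or WT fluoxetine male 4 (adjusted p of at most 0.07344), and at 0.1052 without the 10 libraries low in olfactory bulb markers. On these groups alone its adjusted p was 0.0862. The slope of log2 deviations on log2 exon length, described under fluoxetine below, averaged 0.0215 ± 0.0163 in WT and -0.0028 ± 0.0281 in HT (SD, n = 10 each), and with it as a covariate Col11a2 had 0.37 (limma adjusted p = 0.06043).

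Under lithium limma called Col5a1 alone (0.06% of all genes were called). Its counts ran from 632.9 to 781.9 in the 8 WT libraries (median 705.1) and from 850.9 to 1008 in the 10 HT libraries (median 941.1). This was the only one of the 44 genes whose groups did not overlap in any comparison made here, and in the same comparison 0.024% of all genes tested (4 of 16669) did not overlap. The log2 difference was 0.38 (SE 0.0829, 1.3-fold, limma adjusted p = 0.04846). The adjusted p missed the threshold without any one of 16 of the 18 libraries, and reached 0.1956 at most, while the difference stayed positive in each. It also missed it under 9 other settings, among them no filter (0.05466), the replicate block (0.08823), edgeR (0.06897), quantile normalisation (0.1222) and leaving out the 10 libraries low in olfactory bulb markers (0.1285). A call in one treatment and not in another is not a difference between treatments, and those differences were tested as interactions below.

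Genes that act with collagens were counted in the averaged comparison of HT with WT. The lists, here and below, were chosen with earlier results of these data known, so their counts are description only. Of all genes tested, 0.468% were called in either direction and 0.39% were called higher. Of 20 genes for prolyl and lysyl modification and folding of collagen chains, P4ha3, a catalytic subunit of prolyl 4-hydroxylase, rose in HT (0.35, SE 0.0564, limma adjusted p = 0.0004783) and the other 19 were not called. Of 20 genes listed as fibril partners, 4 rose and none fell. Among them were Ccdc80 (0.18, adjusted p = 0.001837), Npnt (0.20, 0.00354) and Postn (0.23, 0.004193), the last encoding periostin, which binds type I collagen. None was called among 13 genes of propeptide removal and cross-linking, 12 collagen receptors and 17 genes listed as basement membrane partners. Npnt encodes a basement membrane protein but was counted in the fibril list and not among those 17. No gene was called of 14 of collagen breakdown and 15 of TGF-beta signalling. No marker of any of the 13 cell type and region lists was called between HT and WT. The level of the 16 fibroblast markers, none at 0 in any library, was 7.5183 to 8.5453 in WT (median 8.1526) and 7.4911 to 8.8994 in HT (median 8.1816). Endothelial markers had a median of 9.2562 in WT and 9.2303 in HT, and oligodendrocyte precursor markers 9.7216 and 9.7549. For excitatory neuron markers the medians were 11.7459 and 11.7222, and for striatal projection neuron markers 8.1 and 8.1821. The part of those other lists in the collagen calls was not tested.

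The comparison of fluoxetine with vehicle asks how the drug relates to expression in each genotype and on average. Averaged over genotypes, 6 collagen genes rose and none fell: Col16a1, Col6a1, Col11a1, Col5a1, Col12a1 and Col5a3. That is 13.64% of the set, below the 23.5% of all genes called in either direction and near the 11.5% called higher. Above 0 lay 31 of 44 genes (50.18% of all genes), and the median log2 difference was 0.06. The 3 fibrillar, 2 FACIT and 1 type VI genes called do not include any of the 6 type IV genes, of which 5 lay above 0.

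Col6a1 ran from 1738 through a median of 2983 to 4322 normalised counts in the 20 vehicle libraries and from 2429 through 3524 to 4553 in the 20 fluoxetine libraries, and 16 of the 20 fluoxetine libraries were above the vehicle median. Its log2 difference was 0.24 (SE 0.0735, 1.18-fold, limma adjusted p = 0.0125). Col11a1 (ENSMUSG00000027966, chr3:114030540-114220718), the partner chain of Col11a2 in type XI collagen, had 306.4, 416.4 and 548.6 under vehicle and 401.1, 486 and 732.6 under fluoxetine. With 18 of 20 libraries above the vehicle median it had the largest log2 difference of the 6, 0.29 (SE 0.0907, 1.23-fold, limma adjusted p = 0.01448). Groups overlapped for every collagen gene.

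Col16a1 had 451.8, 707.6 and 825.3 under vehicle and 535.6, 776.5 and 988.9 under fluoxetine (log2 difference 0.18, SE 0.0513, limma adjusted p = 0.009692). Col5a1 had 518.1, 830.9 and 1095 against 735.6, 890.7 and 1159 (0.17, SE 0.0553, adjusted p = 0.01941 by limma). For these genes 15 and 13 of 20 fluoxetine libraries lay above the vehicle median. Col12a1, a FACIT chain of dense connective tissue, had 526.9, 872.4 and 1059 against 663.9, 940.4 and 1095 (0.18, limma adjusted p = 0.02689), and Col5a3 had 112.5, 140.5 and 177.5 against 129.4, 150.3 and 214.3 (0.14, adjusted p = 0.04713). Col12a1 was not called without HT fluoxetine female 3, HT vehicle female 2, WT vehicle female 1, WT vehicle female 4 or WT vehicle male 5 (adjusted p up to 0.05456), and Col5a3 without any of 24 of the 40 libraries (up to 0.08792). Without the 10 libraries low in olfactory bulb markers these 2 genes were not called (0.05575 and 0.08654). On the 54 libraries with recovered reads Col16a1, Col6a1 and Col5a1 were still called by edgeR, DESeq2 and limma, and Col11a1 (edgeR adjusted p = 0.05628), Col12a1 (0.09295) and Col5a3 (0.1012) were not.

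In WT alone 3 genes rose under fluoxetine (6.818% of the set, against 7.39% of all genes). Col5a1 went from a median of 755.7 (518.1 to 897.7) to 826.9 (735.6 to 1077), and the log2 difference was 0.30 (SE 0.0782, limma adjusted p = 0.01416). Col12a1 went from 730.7 (526.9 to 1059) to 940.4 (789.2 to 1042), and all 10 fluoxetine libraries were above the vehicle median (0.31, SE 0.0861, adjusted p = 0.01882 by limma). Col16a1 went from 617.8 (451.8 to 812.4) to 739.6 (535.6 to 873.2), with 9 of 10 above it (0.26, SE 0.0725, adjusted p = 0.01961 by limma).

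Some of these calls rested on single libraries. Col12a1 was not called without WT vehicle female 1, WT vehicle female 4 or WT vehicle male 5 (limma adjusted p of at most 0.05982). Col16a1 was not called without WT fluoxetine female 3, WT vehicle female 4 or WT vehicle male 5 (at most 0.06602). The count in WT was 1 without WT vehicle female 4 or WT vehicle male 5 and 5 without WT vehicle male 3.

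In HT limma called none of the 44 genes (12.8% of all genes were called), and edgeR and DESeq2 called 0. An unadjusted p under 0.05 was reached by 2 genes (4.545% of the set, against 27.87% of all genes). Those 2 were Col11a2 (0.22, limma adjusted p = 0.06819) and Col11a1 (0.33, adjusted p = 0.07649), the chains of type XI collagen.

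A measure of the libraries moved with fluoxetine beside these genes. The slope of each library's log2 deviations on log2 exon length, over all genes, averaged -0.0172 ± 0.0376 (SD, n = 20) under vehicle and 0.0093 ± 0.0256 (SD, n = 20) under fluoxetine. Collagen genes are long, with a median exon length of 7542 bases against 4196 over all genes tested. With that slope as a covariate, a setting chosen after seeing the data, Col16a1 was the 1 collagen gene still called on average (0.20, limma adjusted p = 0.01112) and in WT (0.30, adjusted p = 0.033). Col5a1 then stood at 0.10 (0.2611), Col6a1 at 0.17 (0.1338), Col11a1 at 0.17 (0.2224), Col12a1 at 0.07 (0.4578) and Col5a3 at 0.12 (0.1888). The part of exon length in these calls was not tested further. Mature oligodendrocyte markers moved too, with 4 of 10 higher under fluoxetine (11.5% of all genes were called higher) and none at 0. Their level was 11.1301 to 12.8371 under vehicle (median 11.9526) and 11.519 to 12.7556 under fluoxetine (median 12.1657). Their part in the collagen values was not tested. Of the 16 fibroblast markers 1, Foxc1, rose (0.18), to be read against the same 11.5%. The level of the fibroblast markers had a median of 8.1803 under vehicle and 8.2116 under fluoxetine.

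Collagen partners were called in both directions under fluoxetine, in numbers to be read against the 23.5% of all genes called. Of the 20 modification genes 2 rose and 2 fell, P3h1, a prolyl 3-hydroxylase, having the smallest p (-0.15). Adamts2, which removes the N-terminal propeptide of fibrillar procollagens (0.32, limma adjusted p = 0.00678), and Bmp1, which removes the C-terminal one (0.09, adjusted p = 0.0371), rose out of 13 genes of that step, and none of them fell. Of 12 receptors 2 rose, Itga10 (0.42, limma adjusted p = 0.000398) and Lair1 (0.18), and Ddr1 (-0.12) fell. Among the 20 fibril partners 2 rose (Postn 0.20, Matn2 0.18) and Sparcl1 fell (-0.12). The 14 breakdown genes were split, with 2 higher and 2 lower, Timp3, a metalloproteinase inhibitor, standing at 0.26 and the metalloproteinase gene Mmp15 at -0.21. Of the 15 TGF-beta genes 1 rose and 3 fell, Smad7, an inhibitor of the pathway, having the smallest p (-0.30). Lamb1 (-0.12) was the only basement membrane partner of 17 called.

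Lithium was compared with the same vehicle libraries as fluoxetine, so the results of the drugs are not independent of each other. Averaged over genotypes, Col11a1 and Col4a2 rose and Col9a1 fell. These 3 genes are 6.818% of the set, against 14.8% of all genes tested. Above 0 lay 19 of 44 genes, and the median log2 difference was -0.03. Col11a1 had a lowest, median and highest count of 387.8, 506.6 and 887.5 in the 18 lithium libraries, against 306.4, 416.4 and 548.6 under vehicle, and 16 of 18 were above the vehicle median. Its log2 difference was 0.40 (SE 0.0935, 1.32-fold, limma adjusted p = 0.002314). The fold was the largest of any collagen gene called for a drug averaged over genotypes.

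Col4a2 (ENSMUSG00000031503, chr8:11312805-11449287) had 1908, 2660 and 3268 under vehicle and 2491, 3056 and 4208 under lithium, with 15 of 18 libraries above the vehicle median (log2 difference 0.20, SE 0.0621, 1.15-fold, limma adjusted p = 0.02299). On the 54 libraries with recovered reads edgeR gave it an adjusted p of 0.07069. Its neighbour Col4a1 (ENSMUSG00000031502, chr8:11198423-11312826, opposite strand) was not called at 0.14 (limma adjusted p = 0.09855). Of the 6 type IV genes 5 lay above 0 under lithium, with a median of 0.16. Col9a1, the third chain gene of type IX collagen, had 27.81, 43.56 and 57.29 counts under vehicle and 20.3, 31.78 and 51.92 under lithium, and 16 of 18 libraries were below the vehicle median (-0.38, SE 0.1156, 0.769-fold, limma adjusted p = 0.01946).

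The exon length slope also moved with lithium, at 0.0088 ± 0.0243 (SD, n = 18) against -0.0172 ± 0.0376 under vehicle. With it as a covariate Col9a1 was not called on average (-0.35, limma adjusted p = 0.05544) or in HT (-0.42, adjusted p = 0.1061). Col11a1 (0.28, adjusted p = 0.04107 by limma) and Col4a2 (0.20, adjusted p = 0.04598) were still called. The part of the slope in these values was not tested further.

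In WT, 1 collagen gene rose under lithium (2.273% of the set, against 3.34% of all genes tested). Col11a1 went from a median of 409.5 (306.4 to 514.9) to 554.9 (387.8 to 887.5), with 7 of 8 lithium libraries above the vehicle median. The log2 difference was 0.51 (SE 0.136, 1.43-fold, limma adjusted p = 0.02395). It missed the threshold without WT lithium female 1, WT lithium male 2, WT vehicle female 4 or WT vehicle male 5 (adjusted p of at most 0.07605), and at 0.05741 without the 10 libraries low in olfactory bulb markers. Col4a2 was at 0.27 (limma adjusted p = 0.09142) and Col4a1 at 0.22 (adjusted p = 0.163).

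In HT, 2 collagen genes fell under lithium and none rose (4.545% of the set, against 14.1% of all genes). Both encode chains of type IX collagen. Col9a3 went from a median of 523.2 (420.1 to 666.1) to 431.1 (347.6 to 480.8), and all 10 lithium libraries were below the vehicle median (-0.30, SE 0.0858, limma adjusted p = 0.01325). Col9a1 went from 44.05 (31.05 to 57.29) to 31.78 (20.3 to 45.74), with 9 of 10 below it (-0.45, SE 0.1586, limma adjusted p = 0.04937). Without the 10 libraries low in olfactory bulb markers, 3 of them HT lithium and none HT vehicle, Col9a3 had -0.27 (limma adjusted p = 0.05324) and Col9a1 -0.38 (0.1536). Col9a1 also missed the threshold without any of 16 of the 20 libraries (up to 0.1195). Col9a2, the remaining type IX chain, was at -0.16 (adjusted p = 0.2983), and Col6a2 at -0.24 (adjusted p = 0.05465).

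**Figure D3:**
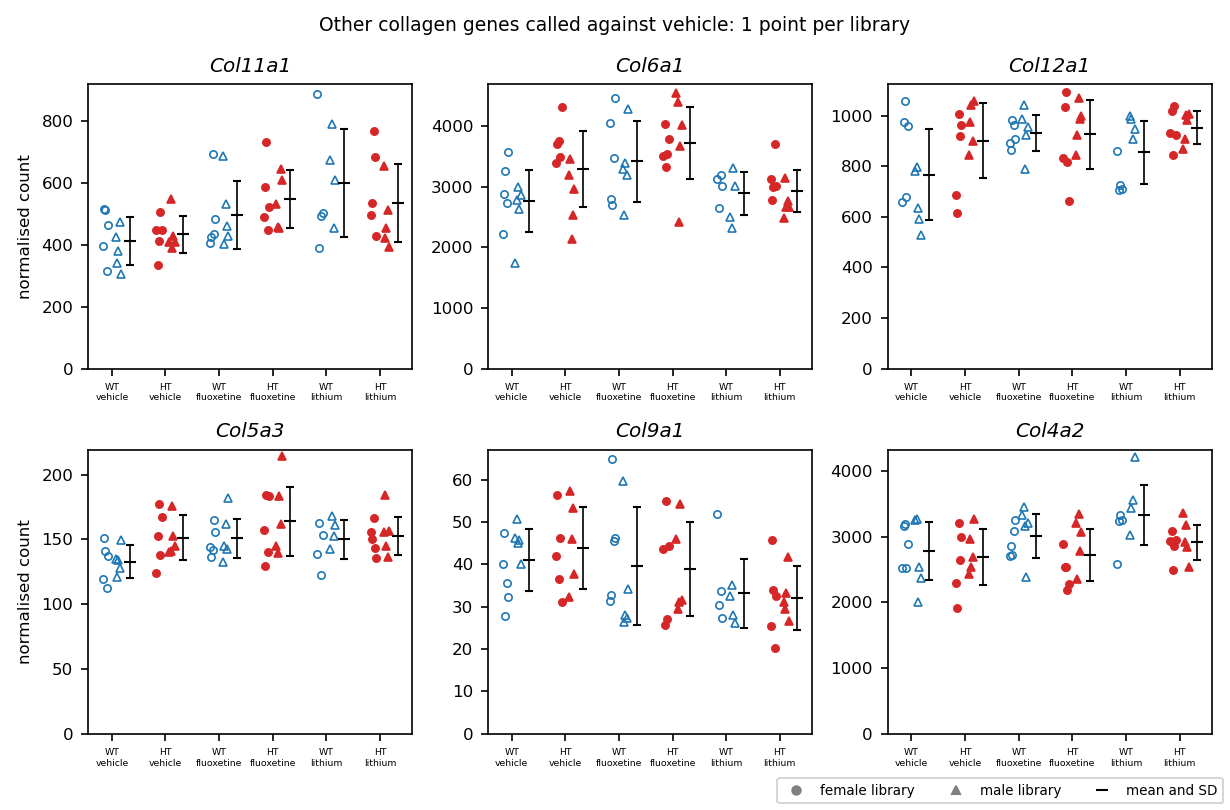
Normalised count (y axis, from 0) of the 6 further collagen genes called for a drug, in each of the 6 groups (x axis), with open blue symbols for WT, filled red for HT, circles for female and triangles for male libraries, and the mean with SD beside them (n = 10, 8 for WT lithium). The mean of Col11a1 is above that of vehicle in both drug groups of both genotypes, the mean of Col9a1 is lower under lithium, and each drug group overlaps its vehicle group.

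Partners under lithium are to be read against the 14.8% of all genes called on average and 14.1% in HT. The modification genes were divided, with 2 higher and 4 lower of 20. P4ha2 (0.34, limma adjusted p = 6.69e-07) and P4ha1 (0.23, adjusted p = 1.84e-05), catalytic subunits of prolyl 4-hydroxylase, rose. Pxdn, which encodes peroxidasin, the enzyme of the sulfilimine cross-links in type IV collagen (0.25, limma adjusted p = 0.000615), and the laminin gene Lama1 (0.25) rose out of 17 basement membrane partners. Itga10 (0.51), a collagen-binding integrin, was the 1 receptor called of 12. Breakdown genes were split 2 and 2, with Mmp14 (-0.23) and Mmp15 (-0.20) lower and Timp3 (0.21) among those higher. Of 15 TGF-beta genes 2 rose and 5 fell. None of the 13 propeptide and cross-linking genes was called on average, but in HT Loxl3 (-0.28) and Loxl1 (-0.53), lysyl oxidase genes, fell.

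Marker genes of vessel cells moved in both directions under lithium, in numbers to be read against the 14.8% of all genes called. Of 14 endothelial markers 2 rose and 3 fell, among them Kdr (-0.40), Tek (-0.27) and Ly6c1 (0.28), and none was at 0. Their level was 9.0147 to 9.5669 under vehicle (median 9.299) and 9.0434 to 9.5507 under lithium (median 9.2092). Of 13 mural markers 1, Pdgfrb (-0.19), fell, with a median level of 8.4338 under vehicle and 8.3952 under lithium. The part of these cell types in the Col4a2 value was not tested.

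**Figure D4:**
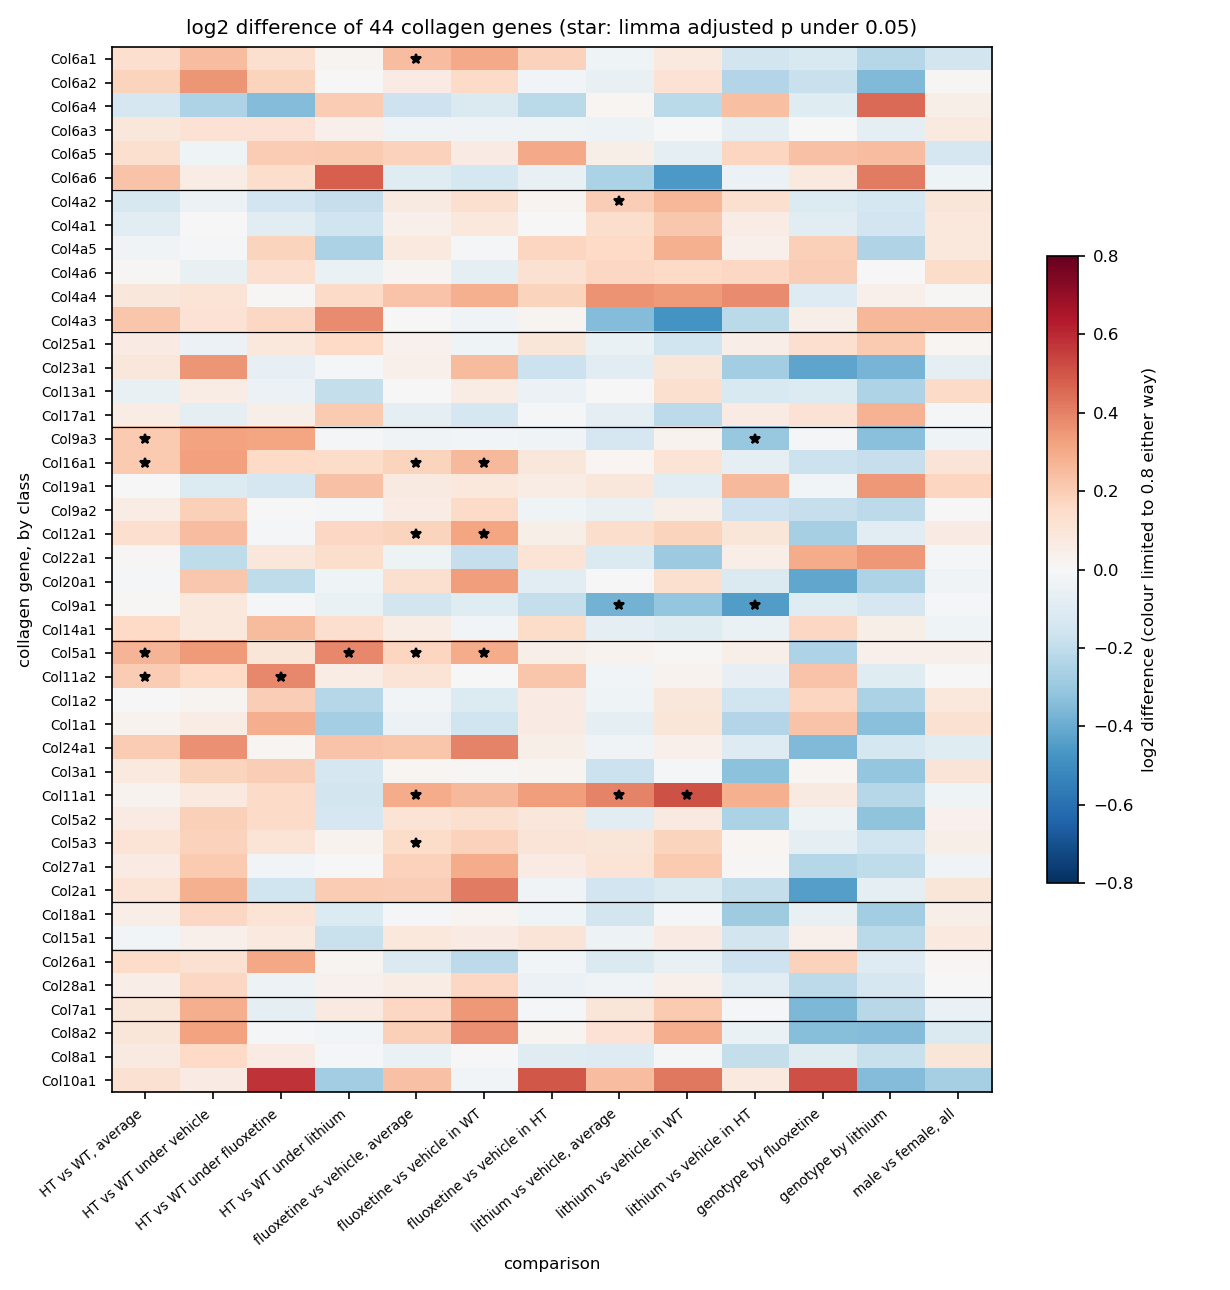
log2 difference (colour, from blue for lower to red for higher, limited to 0.8 either way) of each of the 44 collagen genes (y axis, ordered by class, with lines between classes) in each of 13 comparisons (x axis). Stars mark a limma adjusted p under 0.05: 4 in the averaged comparison of HT with WT, 6 for fluoxetine and 3 for lithium averaged over genotypes, and none in the interactions or between the sexes.

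Whether a drug difference itself differed between HT and WT was tested as an interaction, the drug difference in HT minus that in WT. For fluoxetine limma called none of the 44 genes (0.042% of all genes were called), and edgeR and DESeq2 called 0. An unadjusted p under 0.05 was reached by 4 genes (1 above 0, 3 below), 9.091% of the set against 11.15% of all genes. The smallest adjusted p was 0.3996, for Col5a1, at -0.25 (SE 0.1105, interval -0.47 to -0.03). Col12a1 was at -0.27 (limma adjusted p = 0.4136). For lithium limma called 0 (0% of all genes), and edgeR and DESeq2 called 0 collagen genes. There 5 genes had an unadjusted p under 0.05 (2 above 0, 3 below), 11.36% of the set against 13.92% of all genes. Col6a2 had -0.35 (SE 0.1252, interval -0.61 to -0.10, limma adjusted p = 0.2349) and Col9a3 -0.33 (SE 0.1251, adjusted p = 0.2529). Only 12 of 44 genes lay above 0 for lithium, against 49.56% of all genes. The median was -0.16 against -0.0015 over all genes. Of the 10 libraries low in olfactory bulb markers, 3 were HT lithium and 3 WT vehicle, with none in HT vehicle or WT lithium. The part of those libraries in this median was not tested.

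The Col5a1 difference between HT and WT was 0.34 under vehicle, 0.09 under fluoxetine and 0.38 under lithium, and its fluoxetine difference was 0.30 in WT and 0.05 in HT. The genotype difference under vehicle and the fluoxetine differences use the same vehicle libraries. The intervals above leave room for interactions of that size, and none was called.

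Between male and female libraries limma called none of the 44 genes (0.132% of all genes were called), and edgeR and DESeq2 called 0. There 5 genes had an unadjusted p under 0.05 (4 higher in males, 1 lower), 11.36% of the set against 8.255% of all genes. Col19a1 (0.17, limma adjusted p = 0.415), Col16a1 (0.10, adjusted p = 0.5075) and Col6a1 (-0.15, adjusted p = 0.5023) had the smallest p. All 6 type IV genes lay above 0 in males, with a median of 0.09.

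How the collagen genes varied between libraries of the same group was described against the levels of 6 marker lists, using deviations from group means. With 44 genes and 6 lists there were 264 relations, each with a permutation test of 100000 resamples for Pearson's r and Spearman's rho. The permutation p of the strongest was 1e-05, the smallest it can give, which is 5.2e-05 adjusted for r and 6.1e-05 for rho. The points share the depth and the dissection of a library, whose part was not tested. The olfactory bulb list was related only within the 48 libraries that did not stand apart, and the other lists over all 58. The list with the highest r for a gene was therefore picked across unlike sets of libraries. No marker list holds a collagen gene. The share of all tested genes with such relations was not computed for any list, so the counts of relations below are description only.

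Fibroblast markers (meningeal and perivascular) had the most positive relations, with 25 of 44 genes past an adjusted 0.05 by both measures and 1 negative. Fibrillar genes led them. Col3a1 had r = 0.882 and rho = 0.876 (n = 58, r = 0.871 without the 2 farthest libraries), and Col1a2 had r = 0.858 and rho = 0.853 (0.851 without them). For Col5a2 the values were 0.819 and 0.803 (0.796), for Col1a1 0.704 and 0.732 (0.687), and outside that class for Col8a2, a chain of the short-chain network, 0.846 and 0.816 (0.818). Fibroblasts are the known main source of the type I and type III fibrils in the meninges.

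Col4a2 had its highest r with endothelial markers, 0.708 with rho = 0.653 (0.644 without the 2 farthest), and Col4a1 with mural markers, 0.686 with rho = 0.691 (0.630). Col15a1 had r = 0.624 and rho = 0.465 with endothelial markers (0.498). Col6a3 had 0.566 and 0.562 with mural markers (0.535). Col6a1 differed from Col6a3 in its pattern, with r = 0.725 and rho = 0.682 for oligodendrocyte precursor markers (0.669) and r = 0.088 for fibroblast markers (permutation p = 0.51). Col10a1 (r = 0.605, rho = 0.550) and Col9a3 (r = 0.550, rho = 0.479) also had the precursor list as their highest. Col10a1 ran from 2.394 to 39.63 normalised counts, so its values rest on few reads.

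Excitatory neuron markers had 4 positive and 22 negative relations. The positive ones were Col25a1 (r = 0.732, rho = 0.713, 0.674 without the 2 farthest), Col22a1 (0.569, 0.498, 0.469), Col19a1 (0.479, 0.456, 0.393) and Col5a1 (0.381, 0.370, 0.340, adjusted permutation p = 0.0086 and 0.013). The lowest was Col9a2 (r = -0.853, rho = -0.839). Among the 48 libraries Col23a1 (r = 0.915, rho = 0.905), Col24a1 (0.826, 0.737) and Col7a1 (0.801, 0.710) went with olfactory bulb markers. Col11a1 (r = 0.669, rho = 0.591) and Col9a1 (0.618, 0.561), both called under lithium, did too, while Col5a1 was negative (-0.439, -0.488). Of the 4 genes higher in HT, Col16a1 (r = 0.456, rho = 0.456) and Col11a2 (0.467, 0.484) had the endothelial list as their highest, Col9a3 the precursor list and Col5a1 the excitatory list. For 7 of the 44 genes no list gave a positive relation past 0.05.

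**Figure D5:**
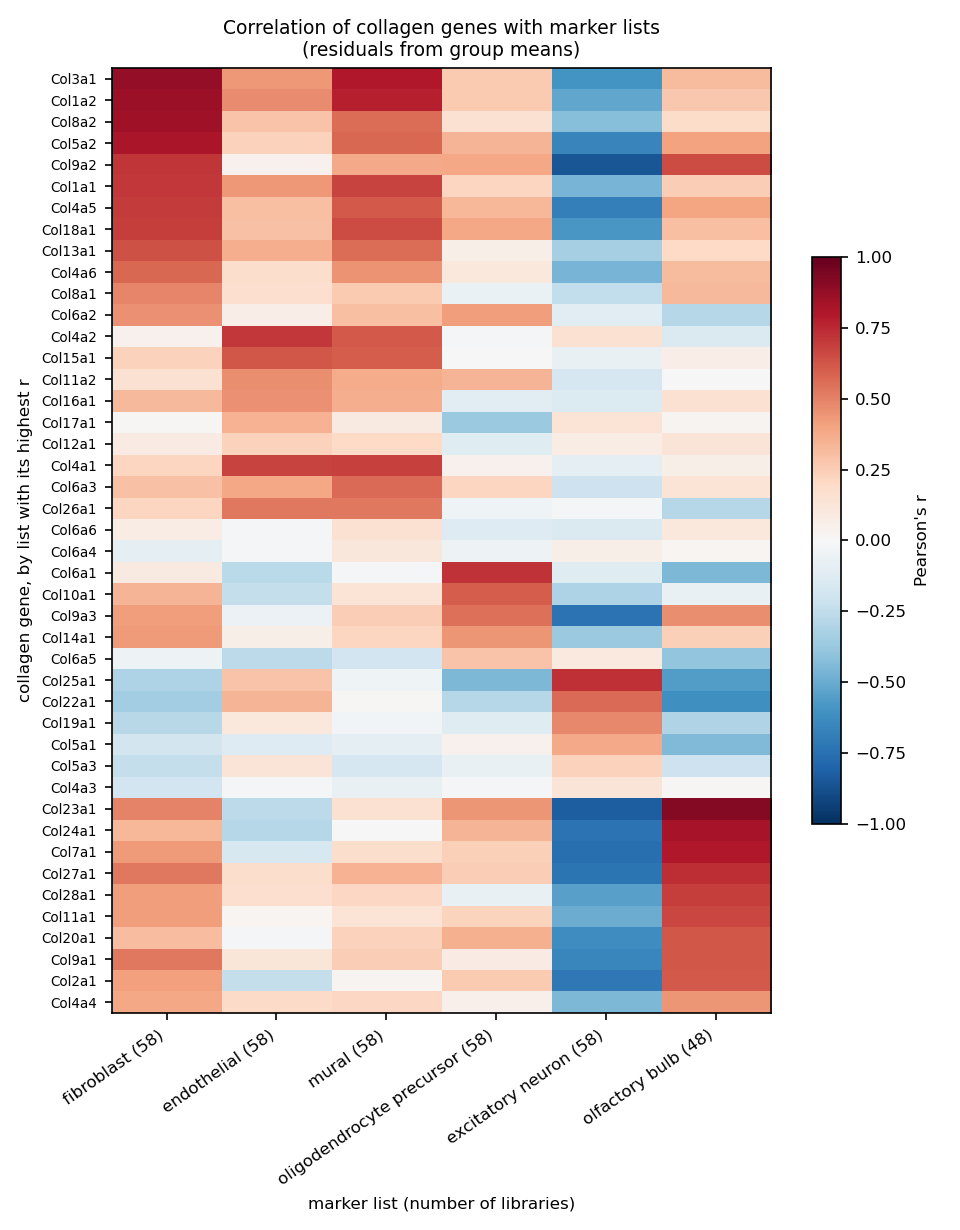
Pearson's r (colour) between each of the 44 collagen genes (y axis, grouped by the list with the highest r) and the level of 6 marker lists (x axis, with the number of libraries), on deviations from group means. Fibroblast markers pair with Col3a1 (0.882) and Col1a2 (0.858), excitatory neuron markers with Col25a1 (0.732) and olfactory bulb markers with Col23a1 (0.915).

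Genes of one collagen type formed 39 pairs, tested in the same way. The head-to-head pair Col4a1 and Col4a2 had the highest correlation, r = 0.915 and rho = 0.890 (n = 58, permutation p = 1e-05, the smallest it can give, adjusted 5.6e-05 and 7.8e-05), and r was 0.894 without the 2 farthest libraries. Their start sites lie 21 bases apart, their windows share 78 bases, and the GGGCGG printed above lies in both. Col4a5 and Col4a6, head to head on chromosome X with start sites 1343 bases apart, had r = 0.661 and rho = 0.603 (0.654 without the 2 farthest). Col1a1 and Col1a2, on chromosomes 11 and 6, had r = 0.906 and rho = 0.900 (0.893).

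The type IX chains varied together, with r = 0.711 and rho = 0.705 for Col9a2 and Col9a3 (0.680 without the 2 farthest), 0.639 and 0.586 for Col9a1 and Col9a2 (0.570), and 0.564 and 0.508 for Col9a1 and Col9a3 (0.456). Col6a1 and Col6a2 had r = 0.686 and rho = 0.690 (0.688), and Col8a1 and Col8a2 r = 0.519 and rho = 0.463 (0.501). Each of these 8 pairs had an adjusted permutation p of at most 0.0016 by either measure, and the remaining pairs of one type had r under 0.5. Col11a1 and Col11a2, whose chains join in one fibril, had r = 0.177 and rho = 0.205 (adjusted permutation p = 0.38 and 0.28). Col5a1 and Col5a2 had r = -0.017 and rho = 0.017, and Col4a3 and Col4a4 r = 0.011 and rho = -0.083. The median r over the 39 pairs of one type was 0.153, with 8 over 0.5, and over the 907 pairs of different types it was 0.170, with 113 over 0.5.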

How the data were processed

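Poly(A) RNA libraries of prefrontal cortex had been made with a stranded kit, per the labels' protocols. The submitters' processing notes name Salmon 0.11.2, R 3.6.0, DESeq2 1.19.11 and GRCm38. The authors deposited 1 table of 18088 genes by 58 libraries, a signal per gene that is a count normalised by library. Its values were whole multiples of 1 step per library (100% within 0.01), from which read counts were recovered. That step was too near 1 to be told from it in 4 libraries (of HT vehicle, female 2 and males 1 and 5, and of HT lithium, male 3), so count tests used the other 54. Groups came from the labels.

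Symbols (18077 genes, 11 without) and positions came from the GENCODE annotation of GRCm38, and upstream sequences from RefSeq GRCm38.p6. Values were tested as log2(value + 1) for the 16669 genes with a mean of at least 10 (1419 left out), with limma 3.58.1 (R 4.3.3), variance trend, 1 coefficient per group and equal weight for the sexes. Fold changes are on the log2(value + 1) scale, and p-values were adjusted by Benjamini-Hochberg over every tested gene. No column was left unmapped. edgeR 4.0.16 and DESeq2 1.42.0 were alternatives on recovered counts. On simulated data for the averaged genotype comparison, 73% of genes changed 1.2-fold and 95% of those changed 1.5-fold were recovered. There were 100 genes per fold among 16669, and 15 unchanged genes were called. For fluoxetine averaged over genotypes 66% and 91% were recovered, and 14 unchanged genes were called. Genes were drawn independently, so the simulation holds no variation that genes of a library share. A marker level is the mean log2 value of a list. Permutation tests were computed with numpy 2.4.6, with ranks from scipy 1.17.1, and were two-sided.

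All collagen genes could be named. Values by group are given for called genes and the highest gene of each class. Per comparison up to 3 genes each way, and per list up to 3 with the smallest p, are named. The members, the lists and the tests were chosen with earlier results of these data known. Replicates are separate samples per the labels. Alternatives changed the normalisation, trend, filter, pseudocount, samples, covariates or tool.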

Additional observations from a re-analysis of the deposited data

Results flagged for a closer look

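In 180 sets of 4 or 5 libraries (15 collagen genes in 12 groups), 13 held a library whose gap to its nearest neighbour was large for the range of its group. Chance alone gives about 1 set in 20. Normalised counts are given with the nearest other library of that group in brackets. Col11a1 was 548.6 (428.8) in HT vehicle male 2 and 691.5 (483.6) in WT fluoxetine female 3. Col16a1 was 771.3 (630) in WT lithium male 4, and Col12a1 was 861.1 (724.4) in WT lithium female 1. Col9a1 was 59.64 (34.24) in WT fluoxetine male 1. Col4a2 was low at 2389 (3157) in WT fluoxetine male 4 and at 2589 (3241) in WT lithium female 1. Col25a1 was low at 1331 (1911) in WT fluoxetine male 1. Col26a1 was 338.1 (265) in HT fluoxetine female 4 and low at 235 (273.3) in HT vehicle female 4. Col7a1 was 375.7 (218.7) in HT fluoxetine male 4. Col8a2 was 101.5 (57.81) in HT fluoxetine female 1 and 132.4 (56.76) in HT fluoxetine male 4.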

How the results depend on the processing

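No result changed direction under any alternative. The counts of collagen genes called were as follows where they moved by over 1.5 times. Counts over all genes moved too, and some are given beside them. For HT against WT averaged over treatments the count of 4 became 2 by edgeR and 2 without the 10 libraries low in olfactory bulb markers. Over all genes 78 became 53 and 54. The count of 0 under vehicle became 2 when the slope on exon length entered the model (over all genes 8 became 29). The count of 1 under fluoxetine became 2 by DESeq2 and 2 with an olfactory bulb covariate, and 0 on the compared groups alone, with the slope and without the 10 libraries. Over all genes 102 became 164 by DESeq2 and 262 with that covariate. It became 7 on those groups alone, 14 with the slope and 2 without the 10 libraries. The count of 1 under lithium became 0 under quantile normalisation, without a filter, at a mean of at least 100, with pseudocount 10, with the replicate block, with a fibroblast covariate, by edgeR, on 54 libraries and without the 10 libraries. For fluoxetine averaged over genotypes 6 became 3 by edgeR, 3 by DESeq2, 3 by limma on the 54 libraries and 1 with the slope, and within 1.5 times it became 4 without the 10 libraries. In WT 3 became 1 alone and 1 with the slope, and in HT 0 became 1 alone and 3 with the olfactory bulb covariate. Over all genes 1232 in WT became 918 and 273, and 2134 in HT became 1753 and 4283. For lithium averaged over genotypes 3 became 5 with the fibroblast covariate. Within 1.5 times it became 2 with the slope, by edgeR and by DESeq2. In WT 1 became 2 by DESeq2, 2 with the olfactory bulb covariate, and 0 alone and without the 10 libraries. In HT 2 became 0 by edgeR and on 54 libraries, 1 without a filter, with pseudocount 10, with the replicate block, with the slope and without the 10 libraries, 4 with the fibroblast covariate and 5 alone. The 1 gene called for lithium in HT without the 10 libraries was neither Col9a3 nor Col9a1. The cause of these changes was not tested. The settings without the 10 libraries, on 54 libraries by limma and with the slope were chosen after seeing the data.

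Leaving out 1 library at a time gave 2 to 4 genes for HT against WT on average, 0 to 2 under vehicle, 0 to 2 under fluoxetine and 0 to 1 under lithium. It gave 4 to 6 for fluoxetine on average, 1 to 5 in WT and 0 to 2 in HT, and 3 to 4 for lithium on average, 0 to 2 in WT and 1 to 4 in HT. The interactions and the sex comparison stayed at 0 to 0. Of 21 calls of single genes, 12 were kept by edgeR and 16 by DESeq2. The replicate number as a block kept 18 and left 3 genes for the averaged genotype comparison. Libraries with the same number did not deviate together (median r -0.007 over 309 pairs, 68 over 0.1). The alternatives moved the median of all genes by at most 0.0133. Per-kilobase levels depend on the exon model, and genes under 10 counts per kilobase have the least precise differences.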

Other observations

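The 10 libraries low in olfactory bulb markers and the other 48 are compared here as values only, since both sets mix genotypes and treatments. Col23a1, a transmembrane collagen, had a median of 337.6 normalised counts (268.3 to 419.1) in the 10 and 546.8 (336.4 to 975.4) in the 48, a ratio of medians of 0.617. Col2a1 had 18.75 against 28.68, Col7a1 149.9 against 211.5, Col24a1 295.3 against 411.3 and Col20a1 77.11 against 103.6. These genes also had the olfactory bulb list as their highest r. That r was taken within the 48 libraries, and those of the other lists over all 58.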
